A study of Mus musculus with 10 samples.

Results

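The ventricles of alpha-TM180 mice, a model of severe cardiac hypertrophy, were compared directly with those of alpha-TM175 mice, a milder model. The comparison took the arrays labelled alpha-TM180 (4) against the arrays labelled alpha-TM175 (3), that is 7 of the 10 arrays of the study. Both lines are transgenic for an alpha-tropomyosin that carries an amino acid change. They are called TM180 and TM175 here, and nontransgenic mice (NTG) are the controls of the study. Total RNA of ventricular tissue was hybridised to Affymetrix 3′ expression arrays, with 1 array per extract. In TM180, arrays 1 to 3 carried extracts of single hearts and array 4 an extract pooled from 20 hearts. In TM175, arrays 1 and 2 were of single hearts and array 3 was of a pool of 20. NTG arrays 1 and 2 were of single hearts and array 3 was of a pool of 20. The labels state no treatment, and they give neither the age of the mice nor the promoter of the transgenes, nor whether a pool held the hearts that were also measured alone. The labels do not say how many founders stand for each line, so the contrast is between 2 lines as well as between 2 degrees of disease. The p-values measure the spread between these extracts.

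Tropomyosin winds along the thin filament of the sarcomere and, with the troponin complex, lets calcium decide whether myosin can bind actin. Mutations in its gene, TPM1 in humans, are one cause of inherited hypertrophic cardiomyopathy, in which the ventricular wall thickens, myocytes fall into disarray and collagen is laid down between them. Stressed ventricle is known for a return to a fetal programme, with natriuretic peptides, skeletal alpha-actin and beta-myosin heavy chain made again, and for the turning on of fibroblasts by transforming growth factor beta.

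Intensities are linear values made by RMA, and differences are given as log2 of TM180 over TM175 from a limma model with extract type (pooled or single) as a term, fitted to all 10 arrays. A probe set was called when its Benjamini-Hochberg adjusted p over 22626 probe sets was under 0.05. Levels of different genes cannot be compared on these arrays. TM175 array 1 stood apart from the other 2 TM175 arrays and is numbered in the plots. Its intensity for Xist, the RNA of the inactive X chromosome, was 987.6, against 129.9 in TM175 array 2 and 99.52 to 111.4 in the single TM180 hearts. Its intensity for the Y-linked gene Eif2s3y was 7.23, against 52.51 and 44.71 to 60.78. These are levels usual for a female heart in that array and for male hearts in the other single extracts of both lines. The pools lay between, with Xist at 414.1 in TM175 and 393.7 in TM180. On a dimmer Xist probe set TM175 array 1 read 218.7, the TM175 pool 211.9 and the TM180 pool 290.4, so there the TM180 pool was highest. The part of sex in any difference was not tested. Values without TM175 array 1 are given beside some of the results that it moves. A difference given without such a value can also depend on that array. Myl1, for example, was at 1.05 with all arrays and 0.74 without it, and Des at 0.70 and 0.47. Without TM175 array 1 no probe set had an adjusted p under 0.1, so every count at that threshold given here rests on it. Leaving out another array instead also took called probe sets above 0.1, as given below. A second feature touched all probe sets. Of probe sets with a readable level, the 5491 brightest had a median difference of 0.13 and the 5491 dimmest one of -0.12, with 0.17 and -0.13 in single hearts and 0.05 and -0.08 in pools. After a renewed quantile normalization these medians were 0.0046 and -0.02.

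Between the lines 6 probe sets were called, 0.0265% of those tested, and each differed at least 1.5-fold. Higher in TM180 (0.0221% of probe sets) were Rrad, St3gal2, Ddx39a, Mllt11 and 1 probe set of Tgfb2, and lower (0.00442%) was Alas2. In all 6 the TM180 and TM175 arrays did not overlap, as was so for 6.22% of all probe sets upward and 7.37% downward. At a looser adjusted p under 0.1 there were 1719 probe sets (7.6%), 808 higher (3.57%) and 911 lower (4.03%), and 5749 had an unadjusted p under 0.05. Without TM175 array 1 the 1719 became 0.

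Rrad, a small GTPase that restrains L-type calcium channels in the myocyte, rose. Its TM175 intensities, in array order, were 239.7, 215.1 and 326.3, and those of TM180 were 533.2, 633.1, 551.4 and 531. Every TM180 array stood above every TM175 array, a difference of 1.15 ± 0.14 (SE; 2.21-fold, 95% interval 1.80 to 2.72, limma adjusted p = 0.0388). The NTG hearts, at 455.5, 346 and 457.8, lay between the lines, so that TM175 stood below the controls and TM180 above them.

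Tgfb2 encodes transforming growth factor beta 2, a secreted inducer of matrix synthesis. The called probe set, not the brightest of the 3 for this gene, read 30.55, 46.14 and 35.25 in TM175 and 64.85, 110.3, 96.74 and 150.4 in TM180. TM175 lay in or above the NTG range of 22.54 to 31.63, and TM180 lay well above both. The difference was 1.49 ± 0.21 (SE; 2.81-fold, interval 2.06 to 3.84, limma adjusted p = 0.0476), 1.24 in single hearts and 2.09 between the pools. The brightest probe set of the gene differed by 0.56 and the third by 0.62, neither called (limma adjusted p = 0.172 and 0.137), so the 3 probe sets shared a direction and differed in size.

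Alas2, the erythroid enzyme that starts haem synthesis, was the only gene that fell. It read 258.8, 266.9 and 261 in TM175 and 153.4, 157.1, 160.9 and 174 in TM180. The spread within either line was small beside the gap, -0.70 ± 0.09 (SE; 1.63-fold lower in TM180, limma adjusted p = 0.0388). NTG hearts, at 201.5, 206.1 and 178, again lay between the lines.

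The other 3 called genes were nearer the median intensity of an array, 68.1 to 70.7 in the 2 lines. St3gal2, a sialyltransferase of the Golgi, read 48.54 to 59.91 in TM175 and 89.74 to 121.2 in TM180 (0.95 ± 0.12, SE, limma adjusted p = 0.0388). Mllt11 read 60.04 to 70.47 and 92.02 to 134.8 (0.82 ± 0.12, limma adjusted p = 0.0487). Ddx39a, an RNA helicase of mRNA export, read 52.63 to 66.3 and 81.16 to 95.47 (0.64 ± 0.09, limma adjusted p = 0.0476). For St3gal2 and Mllt11 the TM175 arrays lay around the NTG ranges of 58.01 to 71.02 and 53.4 to 64.7. Other probe sets of these 3 genes were not called, at 0.12 and 0.15 for St3gal2, -0.14 for Mllt11 and between -0.00082 and 0.56 for Ddx39a. The called probe set of Ddx39a was not its brightest, which differed by 0.27 (limma adjusted p = 0.135).

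**Figure D1:**
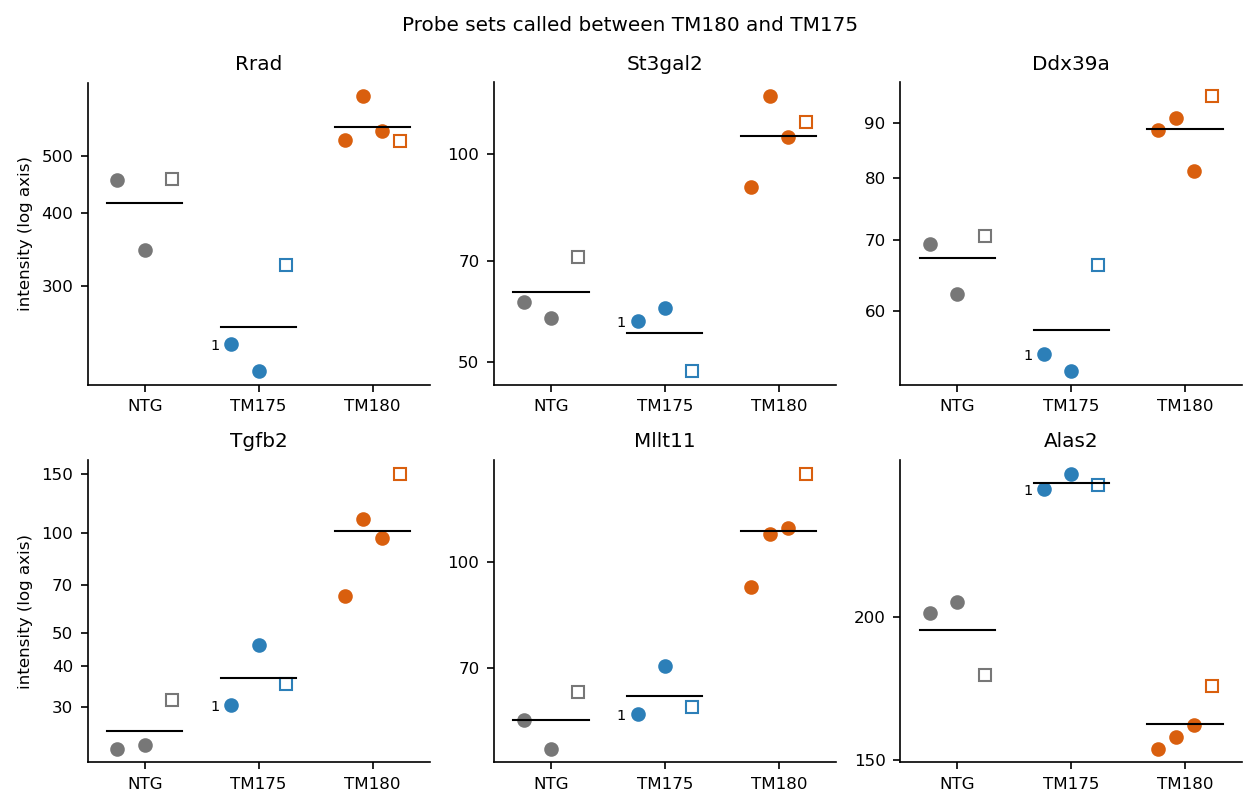
Intensity (log axis) of the 6 called probe sets in each array of NTG, TM175 and TM180; filled circles are single hearts, open squares pools of 20 hearts, lines geometric means, and 1 marks TM175 array 1. In every panel the 4 TM180 arrays stand apart from the 3 TM175 arrays, above them in 5 panels and below them for Alas2.

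The calls depended on which arrays were in the fit. No probe set was called without TM175 array 1 or 2, TM180 array 2 or 3, or NTG array 2 or 3 (3666 to 6060 then had an unadjusted p under 0.05), Rrad alone was called without TM175 array 3 or TM180 array 4, 11 probe sets were called without TM180 array 1, and 885 without NTG array 1. The sizes moved less than the calls: without TM175 array 1 the differences were 1.13 for Rrad, 1.42 for Tgfb2, 0.99 for St3gal2, 0.80 for Mllt11, 0.63 for Ddx39a and -0.72 for Alas2, with limma adjusted p-values of 0.120 to 0.153. The highest limma adjusted p with any 1 array left out came without an array other than TM175 array 1. It was 0.148 for Rrad and Alas2 and 0.189 for Tgfb2, St3gal2, Mllt11 and Ddx39a.

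The bases before the annotated start are shown for Tgfb2 and Alas2, called in opposite directions, and for Nppa, Ankrd1 and Acta1, stress genes described next. Of the 6 called genes 3 had a promoter window in the RefSeq table (GRCm38.p6), namely Tgfb2, Alas2 and Mllt11. The Mllt11 window held no match to the motifs named next and is not shown. Capitals mark matches, on either strand, to the MCAT motif (letters CATTCC, known as a site of TEAD factors), the GATA motif (letters AGATAA), the TATA box (letters TATAAA) and the CArG box (a site of serum response factor).
Tgfb2, chr1:186705990-186706139, minus strand: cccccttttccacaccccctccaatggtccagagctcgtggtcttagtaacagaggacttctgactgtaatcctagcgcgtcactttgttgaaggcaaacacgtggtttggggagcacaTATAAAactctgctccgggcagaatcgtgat
Alas2, chrX:150547267-150547416, plus strand: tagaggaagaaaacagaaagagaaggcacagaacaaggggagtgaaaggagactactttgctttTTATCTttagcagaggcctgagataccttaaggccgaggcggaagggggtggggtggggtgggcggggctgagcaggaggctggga
Nppa, chr4:148000572-148000721, plus strand: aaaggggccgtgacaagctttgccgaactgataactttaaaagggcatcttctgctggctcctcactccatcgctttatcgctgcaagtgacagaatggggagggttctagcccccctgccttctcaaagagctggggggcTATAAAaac
Ankrd1, chr19:36119845-36119994, minus strand: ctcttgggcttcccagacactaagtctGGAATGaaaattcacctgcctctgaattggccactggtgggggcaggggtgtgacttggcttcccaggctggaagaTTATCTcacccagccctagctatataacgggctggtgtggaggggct
Acta1, chr8:123894776-123894925, minus strand: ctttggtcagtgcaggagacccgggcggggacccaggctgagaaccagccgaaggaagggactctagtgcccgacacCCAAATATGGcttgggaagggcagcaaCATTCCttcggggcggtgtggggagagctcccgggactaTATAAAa
Of 32475 distinct windows of 150 bases, 7.51% held MCAT, 5.69% GATA, 7.55% TATA and 0.918% a CArG box. Acta1 held a CArG box, an MCAT and a TATA match, Ankrd1 an MCAT and a GATA match, and Alas2 a GATA match. Tgfb2 and Nppa held a TATA match alone. These are matches of letters, and binding was not measured.

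The hypertrophy and fetal genes had the largest median of the 32 lists with all arrays in the fit, and none of them was called (0.0323% of genes were). Of 15 measured, 11 stood above 0 (46.5% of 12393 genes did), 4 were higher at an adjusted p under 0.1 (3.66% of genes) and none was lower (4.4%). The list median was 0.51, against -0.02 over all genes, and 0.27 without TM175 array 1. The same 11 stood above 0 in single hearts and between the pools, as did 29.6% of all genes.

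Nppa, the gene of atrial natriuretic peptide, read 521.4, 5478 and 3822 in TM175, in array order, and 5991, 8703, 9127 and 7788 in TM180. All TM180 arrays were above all TM175 arrays, but TM175 array 1 lay below even the NTG hearts (635.4 to 906.1), far under the other 2 arrays of its line. The difference was 1.84 ± 0.58 (SE; 3.58-fold, interval 1.48 to 8.65, limma adjusted p = 0.102) and 0.72 without that array.

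Nppa is also made in atria, and some atrial transcripts were high in TM180 arrays 3 and 4. Myl7, the atrial regulatory light chain, read 46.32, 39.27 and 150.9 in TM175, 89.26, 34.16, 454.7 and 336.8 in TM180 and 37.22 to 150.9 in NTG (1.25, limma adjusted p = 0.322). The dimmer probe set of Myl4, the atrial essential light chain, read 54.33, 56.29 and 83.44 in TM175 and 148.3, 50.88, 784.1 and 581.9 in TM180 (1.97, limma adjusted p = 0.148), while its brighter one was at -0.28. TM180 array 2, at the bottom for both Myl7 and this Myl4 probe set, had Nppa at 8703. The 8 atrial markers had a median of -0.06, with none at an adjusted p under 0.1, and summed to 618 to 730.5 in TM175, 571.9 to 1027 in TM180 and 551.7 to 653.9 in NTG. Sln and Bmp10 were at -0.05 and -0.17. The part of atrial tissue in the Nppa difference was not tested.

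Ankrd1, a stretch-responsive protein of the I-band and nucleus, read 1841, 5546 and 3434 in TM175 and 5777, 8928, 6981 and 7240 in TM180. The lines did not overlap, by 1.14 ± 0.29 (SE, limma adjusted p = 0.0798), or 0.69 without TM175 array 1. The NTG hearts, at 3342 to 4648, lay within the TM175 range, so for Ankrd1 it was TM180 that stood above control.

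Acta1, skeletal alpha-actin, read 733.4, 4024 and 2857 in TM175 and 3545, 6993, 3844 and 4249 in TM180. Nppb, the gene of brain natriuretic peptide, read 952.3, 4203 and 2737 in TM175 and 2474, 5921, 3856 and 4625 in TM180. For both genes TM175 array 1 was the lowest of all 10 arrays and the lines overlapped. The differences of 1.17 and 0.88 (limma adjusted p = 0.142 and 0.202) were 0.39 and 0.26 without that array. The same held for Rcan1, a target and inhibitor of calcineurin, at 0.83 with and 0.42 without it (limma adjusted p = 0.164 with it). Meox1 (0.59), a homeobox factor, and the LIM protein Fhl1 (0.64), which binds titin, were among the 4 members at an adjusted p under 0.1 (0.0823 and 0.0861 by limma).

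Myh7, beta-myosin heavy chain, did not follow the others. It read 6319, 2529 and 5063 in TM175, 2577, 3922, 3086 and 3813 in TM180, and 325.4 to 349.8 in NTG. Both lines thus stood far above the controls, with the highest value in TM175 array 1, the array that was lowest for Nppa, Nppb and Acta1. The difference was -0.37 ± 0.25 (SE, limma adjusted p = 0.343) and -0.03 without that array. Myh6, alpha-myosin heavy chain, gave no usable comparison: its settled probe set ran from 9.16 to 952.3 within TM180 alone, and its other probe set, whose level could not be read from the table, differed by 0.04.

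**Figure D2:**
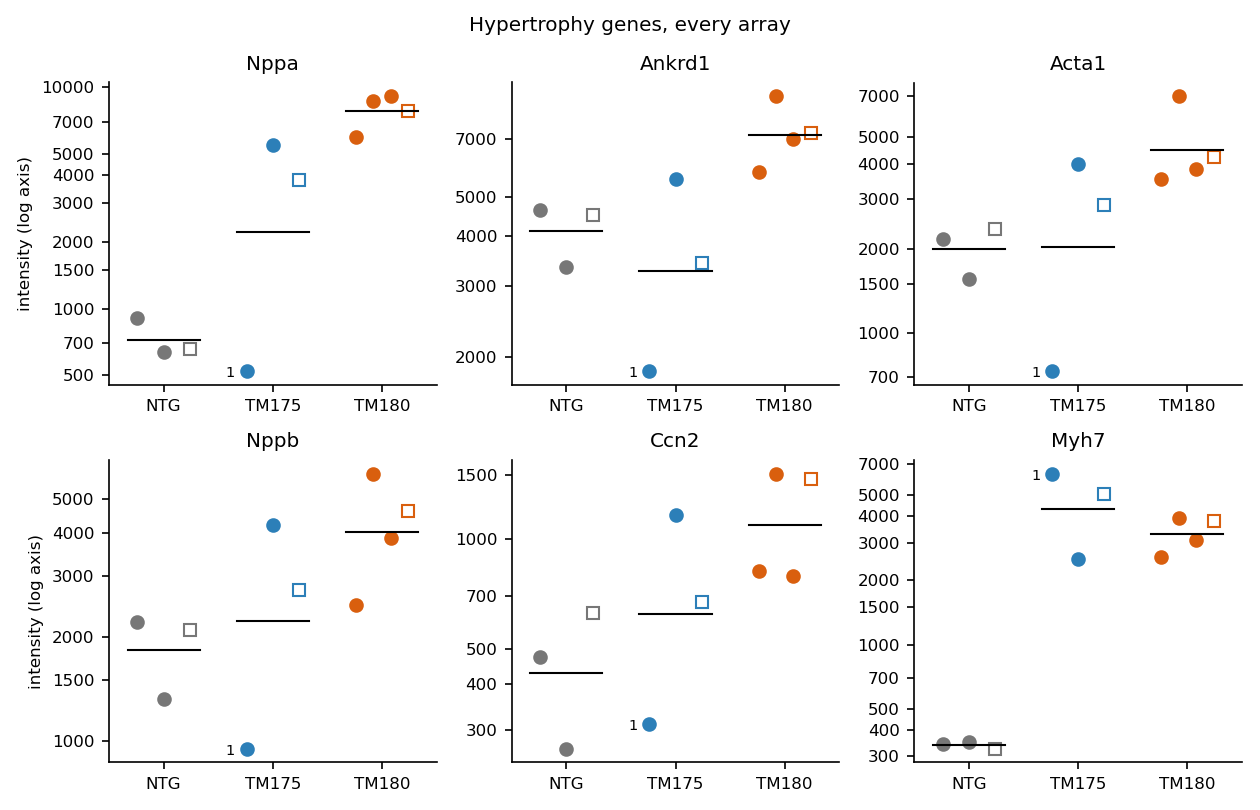
Intensity (log axis) of 6 hypertrophy genes in each array of NTG, TM175 and TM180; filled circles are single hearts, open squares pools of 20 hearts, lines geometric means, and 1 marks TM175 array 1. TM175 array 1 is the lowest TM175 array in 5 panels and the highest for Myh7, and the TM180 arrays lie wholly above TM175 only for Nppa and Ankrd1.

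Matrix genes stood higher in TM180 as a broad group without a single call. Of 40 measured, 37 stood above 0 (46.5% of all genes), 21 were higher at an adjusted p under 0.1 (3.66% of genes) and none lower. In 17 of the 40 every TM180 array exceeded every TM175 array, as in 7.25% of all genes. The list median was 0.45, 0.52 in single hearts and 0.40 between pools, and 37 of the 40 were above 0 in both kinds of extract. Without TM175 array 1 none of the 21 had an adjusted p under 0.1, while the median was 0.38 with 36 above 0 (44.5% of all genes), and after renewed quantile normalization it was 0.35. The summed intensity of the 40 genes was 14500 to 17510 in NTG, 19530 to 25690 in TM175 and 25770 to 35880 in TM180, so that the 3 groups did not overlap, although the highest TM175 and the lowest TM180 array were close. In RNA of whole ventricle, more cells of a type and more RNA per cell cannot be told apart.

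Among the fibrillar collagens Col1a1 read 370.1, 537 and 699.6 in TM175 and 767.8, 1289, 873.3 and 1079 in TM180. All TM180 arrays were above all TM175 arrays, and these above the NTG range of 203.4 to 349, with a difference of 0.96 ± 0.19 (SE; 1.95-fold, limma adjusted p = 0.0757). The dimmer Col1a1 probe set differed by 0.67 (limma adjusted p = 0.144) with an overlap, TM180 array 1 at 240.8 lying below the TM175 pool at 259.3. Col5a2, which joins collagen I fibrils, differed by 0.88 without overlap (limma adjusted p = 0.0757). Col3a1 differed by 0.72 with an overlap, since TM180 array 1 at 1763 lay below the TM175 pool at 2216 (limma adjusted p = 0.0769). Its second probe set differed by 1.10. Elastin, at 0.09 (limma adjusted p = 0.61), and Col8a1, at 0.0014 (-0.21 without TM175 array 1), were members with values near 0.

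Postn, the matricellular protein periostin of activated fibroblasts, was graded across the study. It read 217.6, 172.9 and 226.7 in NTG, 562.2, 607.3 and 772.1 in TM175, and 759.5, 1207, 1110 and 1108 in TM180. TM180 array 1 lay just under the TM175 pool, and the other 3 TM180 arrays stood above all of TM175 (0.71 ± 0.15, SE, limma adjusted p = 0.0757). Mmp2, a gelatinase, read 881.1, 1071 and 943.2 in TM175 and 1461, 1895, 1705 and 1250 in TM180, with NTG at 518.5 to 706.4. Its lines did not overlap and its 2 probe sets gave 0.67 and 0.72 (limma adjusted p = 0.0747 and 0.0617).

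Timp1, an inhibitor of such proteases, read 58.64, 85.22 and 81.37 in TM175 and 89.91, 177.1, 145.6 and 134 in TM180. TM175 lay around the NTG range of 55.69 to 70.14 and TM180 above it (0.84 ± 0.20, SE, limma adjusted p = 0.0761). The microfibril gene Mfap5 differed by 0.67, Loxl1, which crosslinks elastin, by 0.78, and Ltbp2 by 0.83 (limma adjusted p = 0.0757 to 0.0763). Genes for collagen processing and folding in the endoplasmic reticulum had a list median of 0.23 (0.15 without TM175 array 1 and 0.11 after renewed quantile normalization). At an adjusted p under 0.1, 4 of 19 were higher (3.66% of genes) and none was lower (4.4%). Pcolce, an enhancer of procollagen cleavage, was at 0.64, Crtap at 0.34 and the prolyl hydroxylase subunit P4hb at 0.44 (limma adjusted p = 0.0768, 0.0798 and 0.0867).

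**Figure D3:**
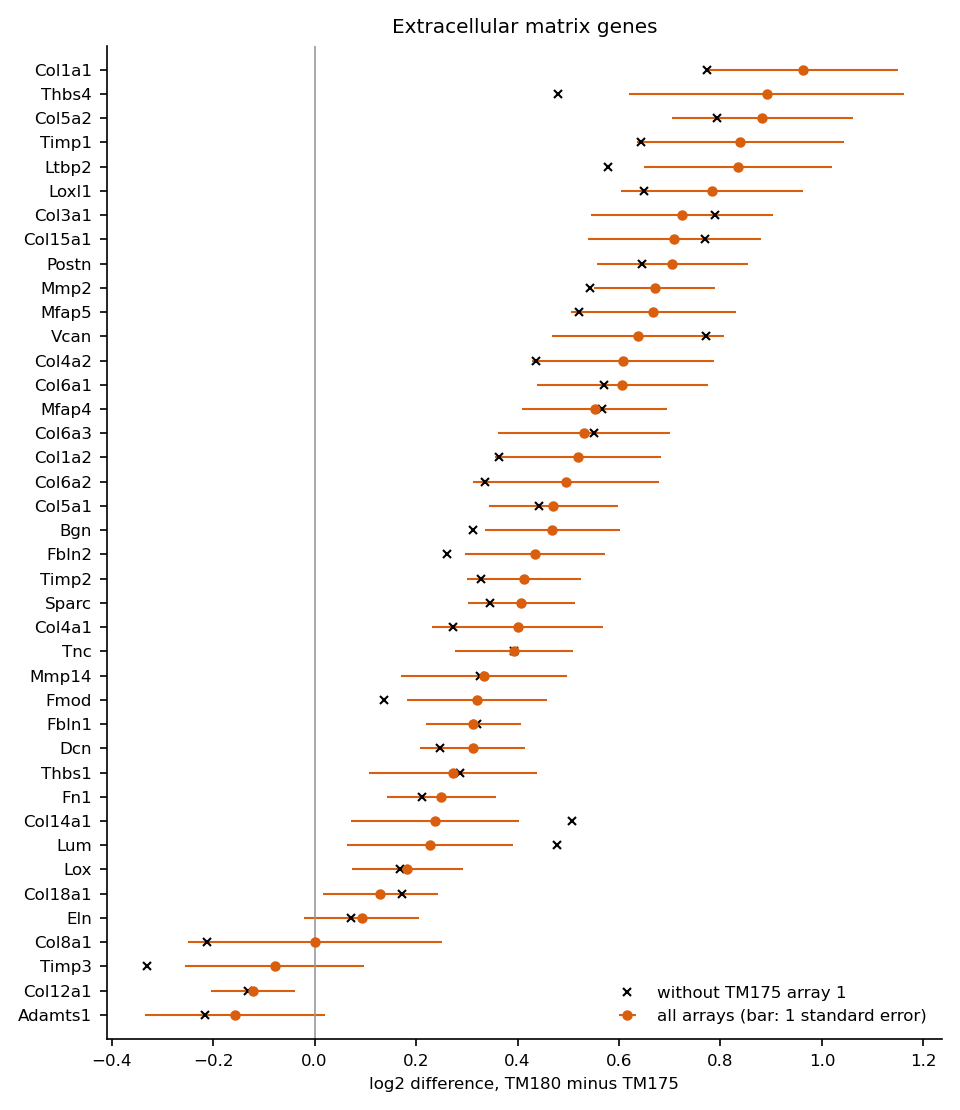
Log2 difference (TM180 minus TM175) of each of 40 extracellular matrix genes, with 1 standard error, and the difference without TM175 array 1 as a cross. With all arrays 37 genes lie above 0, and without that array 36 do.

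Of the growth factor and transforming growth factor beta genes, 20 of 30 stood above 0 (46.5% of all genes). At an adjusted p under 0.1, 4 were higher (3.66% of genes) and none was lower (4.4%), and the list median was 0.09. Every TM180 array exceeded every TM175 array in 2 of the 30 (7.25% of all genes) and was below in 2 (7.44%). The 2 below were Edn1 (-0.26) and Igf2 (-0.23), and Igfbp5 was at -0.33 (limma adjusted p = 0.133, 0.234 and 0.161). Besides Tgfb2, taken in the list by its brightest probe set, the ligand Tgfb3 read 202.9, 213.8 and 199.4 in TM175 and 279.7, 278.8, 307.6 and 269.1 in TM180. The groups did not overlap, NTG hearts were lower than both at 143.7 to 165.8, and the difference was 0.46 ± 0.08 (SE, limma adjusted p = 0.0747). The ligand Tgfb1 differed by 0.26 (limma adjusted p = 0.508). The receptor genes Tgfbr1 (0.41) and Tgfbr2 (0.39) and the secreted glycoprotein gene Fstl1 (0.54) had limma adjusted p-values of 0.0861, 0.0886 and 0.0884. Other probe sets of Tgfbr1 were at -0.48 and -0.11. Ccn2, connective tissue growth factor and a classic target of the pathway, read 310.6, 1167 and 674.8 in TM175 and 820, 1515, 792.5 and 1467 in TM180, and its lines overlapped (0.85, limma adjusted p = 0.188, and 0.38 without TM175 array 1).

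No tropomyosin gene was called. The brightest Tpm1 probe set read 15434 to 16517 in TM175, 15587 to 17346 in TM180 and 11241 to 13205 in NTG, so the lines overlapped and both stood above the controls (0.03 ± 0.08, SE, interval -0.14 to 0.20, limma adjusted p = 0.794). Its other 2 probe sets were at -0.51 and 0.18 (limma adjusted p = 0.0965 and 0.517), and what share of the signal comes from the transgene cannot be read from them. Tpm2 was at 0.28 without overlap and Tpm3 at 0.25 (limma adjusted p = 0.125 and 0.323), or 0.19 and 0.10 without TM175 array 1. The other 3 probe sets of Tpm2 stood at 0.22, 0.30 and 0.43, in the same direction.

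Sarcomere and Z-disc genes had a median of 0.14, near that of the 5491 brightest probe sets, and 0.07 after renewed quantile normalization and 0.04 without TM175 array 1. The M-band gene Myom2 read 1465, 1685 and 1634 in TM175 and 2009, 2106, 2173 and 2007 in TM180, with no overlap (0.38, limma adjusted p = 0.0832). Mybpc3, cardiac myosin-binding protein C, differed by 0.30 without overlap (limma adjusted p = 0.0935), its level being unreadable from the table. Des, the intermediate filament protein desmin, kept here among the smooth muscle and pericyte markers though myocytes make it too, read 1906, 3155 and 2472 in TM175 and 4069, 4574, 3588 and 3870 in TM180. All TM180 arrays were above TM175, by 0.70 ± 0.15 (SE, limma adjusted p = 0.0757), while the other Des probe set was at -0.20.

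Calcium handling genes had a median of 0.06, or -0.01 after renewed quantile normalization. Atp2a2, the SERCA2 pump that refills the sarcoplasmic reticulum, read 1551 to 1704 in TM175 and 1549 to 1872 in TM180, and NTG hearts were above both at 1964 to 2093 (0.07, limma adjusted p = 0.634, and -0.09 after renewed quantile normalization). Pln, its inhibitor phospholamban, was at -0.12 with overlapping arrays (limma adjusted p = 0.450, and -0.06 without TM175 array 1). Casq1, the calsequestrin of fast skeletal muscle, was the member that stood out. It read 820.9, 985.6 and 979.1 in TM175 and 1258, 1991, 1297 and 1349 in TM180, with no overlap (0.64 ± 0.15, SE, limma adjusted p = 0.0757). Among skeletal muscle markers Myl1, the fast myosin light chain, differed by 1.05 without overlap (limma adjusted p = 0.0757), while the list median was -0.12 and Pvalb and Tnnt3 were at -0.23 and -0.21.

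Metabolic genes held no member near a call. None of 30 genes of fatty acid oxidation, 22 of glycolysis and 40 of the citrate cycle and oxidative phosphorylation reached an adjusted p under 0.1 in either direction, and their medians were -0.01, 0.10 and 0.04 (-0.09, 0.02 and -0.04 after renewed quantile normalization, and -0.02, 0.05 and 0.0079 without TM175 array 1). The summed intensity of the fatty acid oxidation genes was 41950 to 44800 in TM175, 38640 to 47930 in TM180 and 53310 to 57680 in NTG. For oxidative phosphorylation it was 105500 to 111400, 104100 to 115500 and 122100 to 124500. In both sums the lines overlapped and lay below the controls. Of the 22 glycolytic genes 1 stood wholly above in TM180 (7.25% of all genes) and 2 wholly below (7.44%). Above was Hk1, a hexokinase (972.4 to 1062 in TM175, 1160 to 1198 in TM180, a difference of 0.22, limma adjusted p = 0.133). Below were Pfkfb2 at -0.30 and Fbp2 at -0.32 (limma adjusted p = 0.151 and 0.237).

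Antioxidant genes had a median of 0.21 (0.05 after renewed quantile normalization and 0.09 without TM175 array 1). At an adjusted p under 0.1, 4 of 22 were higher (3.66% of genes), none of them without that array. Gpx3, the secreted glutathione peroxidase, read 1147, 1943 and 1619 in TM175 and 2114, 2396, 2467 and 2398 in TM180 (0.61 ± 0.15, SE, limma adjusted p = 0.0763, and 0.39 without TM175 array 1). Nqo1, a target of NRF2, differed by 0.45 and the mitochondrial peroxiredoxin Prdx3 by 0.31, both without overlap (limma adjusted p = 0.0757 and 0.0903). Of 15 clock genes 3 were higher at an adjusted p under 0.1 (3.66% of genes), with a list median of -0.04 (-0.08 without TM175 array 1). Nr1d1, the repressor REV-ERB alpha, read 164.2, 198.9 and 184.1 in TM175 and 272.9, 382.2, 294.6 and 269.9 in TM180 (0.74, limma adjusted p = 0.0757). Dbp and Bhlhe40 were at 0.71 and 0.70 (limma adjusted p = 0.0794 and 0.0810). The labels give no time of day for the hearts, and its part in these values was not tested.

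The remaining functional lists had few members at an adjusted p under 0.1, where 3.66% of all genes were higher and 4.4% lower. Of 36 genes of hypertrophic signalling 1 was higher, Nfatc2, a nuclear factor freed by calcineurin, at 0.36 without overlap (limma adjusted p = 0.0976), and Nfatc3 was at 0.28. Other probe sets of Nfatc2 were at -0.15, -0.11 and 0.48, and that of Nfatc3 was at -0.14. None of 16 heat shock and 22 interferon response genes reached an adjusted p under 0.1. Their medians were 0.16 and -0.09, and the heat shock median was 0.0019 without TM175 array 1. In 5 further lists the 1 member that did was lower and dim: the connexin Gja5 (-0.35), the immediate early gene Fosb (-0.41), the class II transactivator Ciita (-0.47), the mitotic kinase Aurkb (-0.42) and, brighter than these, the apoptosis inhibitor Cflar (-0.41). Cyclin D2, Ccnd2, stood at 0.45 (limma adjusted p = 0.102), within a cell cycle list whose median was -0.06.

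Ranked after the called genes by p, Mtpn (0.75), Fgl2 (1.04) and a second probe set of Mmp2 (0.72) were the nearest upward and did not pass (limma adjusted p = 0.0613 to 0.0617). Fgl2, a fibrinogen-like protein of activated endothelium and macrophages, read 64.82 to 71.99 in TM175 and 95.28 to 174.3 in TM180, against 54.7 to 70.65 in NTG. Downward the nearest were Dhh, Acod1, 0610005C13Rik, Sult1c1, Ankrd17, 1700028P14Rik and Med29, at -0.57 to -0.43 (limma adjusted p = 0.0747 to 0.0757). These are dim probe sets, with no TM175 or TM180 array above 106.2. Other probe sets of Ankrd17 ran from -0.48 to 0.18, that of Med29 was at 0.44, and those of Mtpn ran from -0.01 to 0.49. The same split held for the whole table: of the probe sets higher at an adjusted p under 0.1 with a readable level, 418 were among the 5491 brightest and 58 among the 5491 dimmest, and of those lower 37 and 287.

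Cell type markers moved with some of these groups. Fibroblast markers, which share Col1a1, Col1a2, Dcn, Lum and Mfap5 with the matrix list, had a median of 0.28. Of 15 markers 14 stood above 0 (46.5% of all genes) and 4 were higher at an adjusted p under 0.1 (3.66% of genes). Their summed intensity was 12750 to 16110 in TM175, 14740 to 17380 in TM180 and 10120 to 11700 in NTG. Pdgfra, a fibroblast receptor outside the matrix list, was at 0.41 (limma adjusted p = 0.105), whereas Vim and Thy1 were at 0.01 and 0.07, and the share of fibroblast number in the matrix difference was not tested. Cardiomyocyte markers had a median of 0.02 (-0.06 without TM175 array 1) with 0 of 12 past an adjusted p of 0.1 and summed to 55770 to 61690 in TM175 and 56670 to 61460 in TM180. Endothelial and macrophage markers gave opposite medians in the 2 kinds of extract, 0.22 and 0.29 in single hearts and -0.24 and -0.08 between pools. With all arrays their medians were 0.09 and 0.18, and without TM175 array 1 they were -0.05 and 0.05.

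Red blood cell markers stood below 0 in 5 of 5 genes, with a median of -0.19, whereas 46.5% of all genes stood above 0. Their summed intensity was 494.6 to 500 in TM175, 341.1 to 382.3 in TM180 and 374.8 to 416.1 in NTG, without overlap between the lines, and Alas2 is itself one of the 5. Of the other members Epb42 was at -0.26, Hbb-b2 at -0.19, Hba-a1 at -0.16 and Slc4a1 at -0.16, none called (limma adjusted p = 0.122 to 0.329). The part of blood left in the tissue in the fall of Alas2 was not tested. Of 13 lymphocyte markers 12 stood below 0, with a median of -0.22, whereas 46.5% of all genes stood above 0. Cd8a, Cd4 and Cd79a, all dim, were lower at an adjusted p under 0.1 (-0.39, -0.37 and -0.35), as were 4.4% of all genes. The other probe sets of Cd8a and Cd4 were at -0.11 and -0.12 (limma adjusted p = 0.473 and 0.464).

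**Figure D4:**
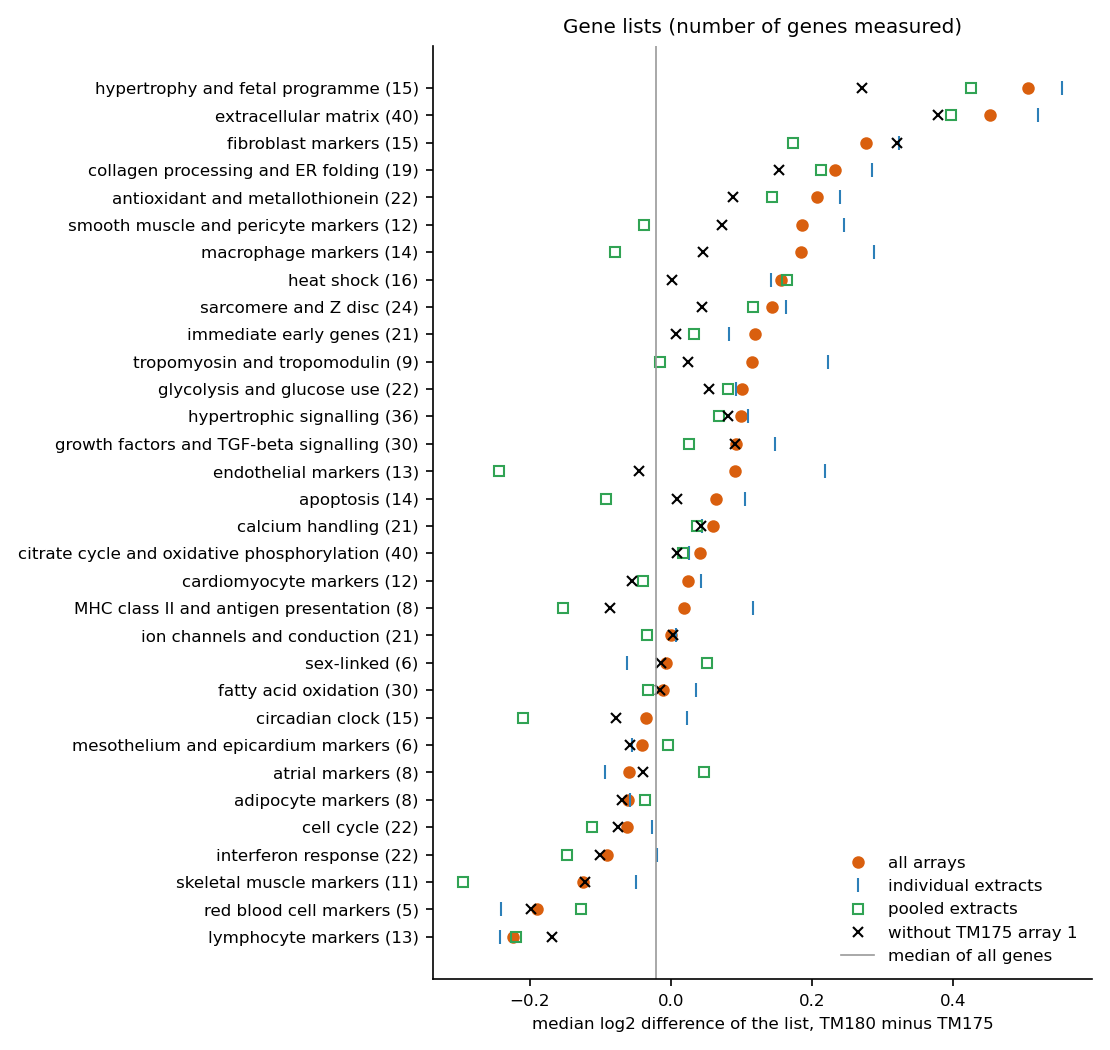
Median log2 difference (TM180 minus TM175) of each of 32 gene lists with all arrays, single hearts alone, pools alone and without TM175 array 1; the line is the median of all genes. The hypertrophy list (0.51) and the matrix list (0.45) lie farthest right, and the lymphocyte list (-0.22) farthest left.

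Single hearts and pools were set side by side for all probe sets, since both lines had both. A term for the difference of the contrast between the kinds of extract called 0 of 22626 probe sets (limma; 931 with an unadjusted p under 0.05, smallest adjusted p 0.976). The 6 called probe sets had the same sign in both, which arrays without overlap between the lines must give. The sizes were, for example, 1.33 and 0.70 for Rrad and -0.74 and -0.58 for Alas2. On the beta-actin control probes the ratio of the 3′ to the middle probe set was 3.63 to 4.13 in the single hearts of both lines and 1.32 and 1.35 in their pools, so the kinds of extract differed in this measure far more than the lines did. The ratio of the 3′ to the 5′ probe set did not separate them, at 1.22 to 1.5 in the single hearts and 1.5 and 1.48 in the pools.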

How the data were processed

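Ventricular RNA was measured on Affymetrix arrays, 1 per extract. The deposited values are linear probe set intensities, made by the authors with RMA (version not given), per the submitters' processing notes. Values of 1000 or more are written there with a point before the last 3 digits. This was undone from the digits and the other arrays of the probe set, for 7614 of 226900 values in 1034 probe sets. On rewritten data 0 of 220070 values were misread, which does not test the assumption about the mark. For 663 tested probe sets the level stayed unsettled, which leaves differences untouched. Of 22690 probe sets 64 controls were set aside. RefSeq symbols were single for 20380, several for 691 and none for 1555.

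Log2 values were fitted in limma 3.58.1 (R 4.3.3), 1 mean per genotype plus extract type, two-sided. Differences are model estimates on all 10 arrays. Pooled against single values come from those arrays alone. Lists use the brightest probe set per gene (12393 genes) and are described by counts and medians. Python 3.11.15, pandas 2.3.3, numpy 2.4.6 and matplotlib 3.10.9 served for reading and plots. The members and lists were chosen with earlier results of these data known. Named genes were a set of hypertrophy genes, called genes without overlap, the smallest p-values to make 8 per direction, and up to 3 per list by p; any other gene was named after its value was seen. On simulated data for this comparison, over 22626 probe sets, 59.7% of 67 changed by 0.5 and 100% of 67 changed by 1 were called, with 17 unchanged ones. Alternatives covered extract type, arrays, normalization, weights, probe set choice and each array left out. The number of arrays limits the precision.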

Additional observations from a re-analysis of the deposited data

Results flagged for a closer look

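Of 122 probe sets named by rule, 15 had 1 TM180 array far from the other 3, judged by its gap to the nearest array over the range of the 4. Chance alone gives about 1 in 20 such gaps per group. In 7 of them the array apart was array 4, the pool of 20 hearts: Xist at 393.7, Cacna2d1 at 73.98, Acot2 at 28.1, Flt1 at 397.2 and Vwf at 173.7 were high there, and Ankrd17 at 26.08 and Fosb at 32.66 were low. The TM175 and NTG pools were likewise the highest of their groups for Flt1 (506.5 and 409.9), Cacna2d1 and Acot2, and the lowest for Fosb. For Xist, Vwf and Ankrd17 this did not hold in both groups. The 1 in 20 takes the 4 arrays as alike in kind, and a pool among single hearts is not. Array 1 stood apart for Pln, high at 4577, and for Col3a1, low at 1763. Array 2 stood apart for Casq1 at 1991 and Bag3 at 2080, both high, and for Bcl2l11, low at 170.8. Array 3 stood apart for Hspb8 at 1821 and Hspb2 at 383.2, both low, and for Dkk3, high at 124.5. Only Ankrd17, Casq1, Fosb and Col3a1 among these had an adjusted p under 0.1 between the lines, and none was called.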

How the results depend on the processing

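The 6 calls became 0 with no extract type in the model, in single extracts only, in the 7 arrays of the 2 lines only and with the replicate number as a block, which had 3001, 4562, 6346 and 3804 probe sets at an unadjusted p under 0.05. They became 1922 with array weights (813 higher, 1109 lower), 11 after renewed quantile normalization and 1719 at an adjusted p under 0.1. Leaving out 1 array at a time gave 0 to 885 calls. The looser threshold admits more by construction, and the cause of the other moves was not tested. All 6 were still called with array weights, renewed quantile normalization, median centring and an intensity trend with robust fitting.

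Replicate numbers did not pair the arrays: deviations of same-numbered TM175 and TM180 arrays correlated at 0.168, 0.485 and -0.51, and TM180 array 4 was alone in its block. Array 3 was a pool in TM175 and a single heart in TM180. With extract type in the model the residuals correlated at -0.287, 0.249 and 0.0657. Signs turned for Tpm1 (-0.00257) and Atp2a2 (-0.090) after renewed quantile normalization and for Myl7 (-0.108) with the replicate block. With 1 array left out at a time, Eif2s3y ran from -0.022 (without TM175 array 1) to 1.60 (without TM175 array 2), Myh6 from -0.384 to 1.88 likewise, and Adipoq from -0.431 (without TM175 array 1) to 0.010 (without TM175 array 3). None of these 6 was called. Of probe sets lower at an adjusted p under 0.1 with a readable level, 287 and 392 lay in the dimmest and second dimmest of 4 level groups, 191 and 37 in the brighter 2, and near background an array resolves differences less well. Differences of 0.5 were called in part of the simulated cases, 59.7%, whose noise was independent between probe sets, unlike what may hold for these arrays.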
